A study of Mus musculus with 29 samples.

Results

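HdhQ150 mice carry an expanded CAG repeat knocked into their own huntingtin gene, Htt, and are used as a model of Huntington's disease. The comparison described here is that of HdhQ150 mice with wild-type littermates at 18 months of age, 8 of the 29 mice of the series. Its members were taken by their titles, 4 HdhQ150 mice numbered 383, 412, 415 and 426 and 4 wild-type mice WT-400, WT-401, WT-414 and WT-431, with 1 array for each mouse. All 8 are labelled as female, carry the mixed background named 129/Ola x C57BL6/J and gave total RNA of the caudate nucleus. The labels state neither the length of the repeat nor whether 1 or both Htt alleles carry it. The remaining 21 mice were of both genotypes at 6 months (5 HdhQ150 and 5 wild type) and at 12 months (6 and 5). They were different animals, and 6 of them are labelled male. Every gene with a single symbol, 19938 in all, was compared, and the labels name no agent given to the mice.

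The caudate nucleus is part of the striatum, whose principal cells are projection neurons that use GABA as transmitter. Those of the direct pathway express the D1 dopamine receptor, substance P and dynorphin, and those of the indirect pathway express the D2 dopamine receptor, an adenosine receptor and enkephalin. In Huntington's disease the projection neurons are lost, and reduced messenger RNA of their receptors, channels and signalling enzymes has long been described in mouse models and patients. Huntingtin is a large scaffold protein that is made in nearly all cells.

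The deposited values are log2 levels, and differences below are HdhQ150 minus wild type on that scale, so that 1 unit is a doubling. The 18-month arrays had medians of 6.92 to 6.99 and correlated on average between 0.988 and 0.992 with the other arrays of their own group. Projection neuron markers were well represented on all 8 arrays, with Penk at 11.33 to 12.41, Drd2 at 10.02 to 10.86 and Ppp1r1b at 10.59 to 11.36. Wild-type mouse WT-431 had the highest levels of the subcortical markers Zic1, Calb2, Prkcd (8.47) and Slc17a6 (7.56), of which Calb2 also marks striatal interneurons. The same mouse was highest in Neurod1, which is on the cortical list, unlike Slc17a7 and Neurod6 of that list, given below. Its Calb2 was 10.05 against 6.70 to 7.72 on the other 7 arrays, its Zic1 9.84 against 7.41 to 8.53, and its Neurod1 8.01 against 5.66 to 6.75. HdhQ150 mouse 383 had the highest level of the choroid plexus gene Ttr, 10.72, and of the smooth muscle actin gene Acta2, 9.38 against 7.79 to 8.39 on the other arrays. The cortical glutamate transporter gene Slc17a7 was lowest in these same mice, 10.88 in 383 and 10.78 in WT-431, against 11.21 to 11.77 in the other 6. Neurod6, also a cortical marker, was 6.62 in 383 and 6.64 in WT-431, against 7.36 to 8.25 in the other 6. With both mice left out, a setting chosen after the data were seen, 13 genes passed the threshold, 12 of them among the 27 that passed with all arrays. At other ages, WT-454 (12 months) correlated with its group at 0.959, against 0.982 to 0.986 for the others there. HdhQ150 mouse 1023 (6 months), though labelled female, had Xist at 5.95, against 11.11 to 11.65 in the other labelled females. Both enter through the shared spread and the sex term, and without them 43 genes passed, the 27 included. Replicates are separate mice, and 4 arrays a group limit the precision.

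Promoter sequences were printed for Htt and for the 3 genes past the threshold whose promoter held 1 of 3 motifs linked to neuronal activity and daily rhythm. The search covered 300 bases of each RefSeq promoter of GRCm38.p6, from 250 before to 50 after the gene's start, on both strands. It used the cAMP response element TGACGTCA, the early growth response motif GCGGGGGCG and the E-box CACGTG, none of which contains another. A promoter was held by the table for 24 of the 27 genes past the threshold and for 15614 of the 19938 tested, with none for Penk, Slc4a11 and Stc1. Each line gives the 150 bases before the start, 5′ to 3′ in the direction of the gene, with the match in capitals (in Hipk2 the match is to the reverse complement). The positions are chr5:34761590-34761739 on the plus strand for Htt, chr13:21312053-21312202 on the plus strand for Gpx6, chr10:41072291-41072440 on the minus strand for Gpr6 and chr6:38876191-38876340 on the minus strand for Hipk2.
Htt: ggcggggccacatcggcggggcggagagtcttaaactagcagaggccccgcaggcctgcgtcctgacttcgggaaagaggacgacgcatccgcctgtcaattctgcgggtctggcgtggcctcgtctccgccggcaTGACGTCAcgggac
Gpx6: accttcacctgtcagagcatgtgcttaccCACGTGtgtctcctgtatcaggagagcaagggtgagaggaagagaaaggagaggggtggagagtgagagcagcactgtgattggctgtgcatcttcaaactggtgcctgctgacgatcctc
Gpr6: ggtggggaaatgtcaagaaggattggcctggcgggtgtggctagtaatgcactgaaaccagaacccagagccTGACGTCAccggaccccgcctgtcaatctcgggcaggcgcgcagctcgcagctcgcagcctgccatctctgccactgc
Hipk2: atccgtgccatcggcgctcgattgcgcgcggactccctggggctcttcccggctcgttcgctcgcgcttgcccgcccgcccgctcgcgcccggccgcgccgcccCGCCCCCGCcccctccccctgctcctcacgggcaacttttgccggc
The match began 14 bases before the start in Htt, 121 in Gpx6, 78 in Gpr6 and 46 in Hipk2. Among the 24 promoters of genes past the threshold, 1 held the cAMP response element (4.17%, Gpr6), 1 the early growth response motif (4.17%, Hipk2) and 1 the E-box (4.17%, Gpx6). Over all 15614 promoters the shares were 2.72%, 4.82% and 9.5%. Counts of 1 lie near these shares, and a match is a string of letters rather than a bound site.

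Htt, the gene that carries the repeat, was measured by 1 probe set (10521261). Its level was 8.61, 8.99, 8.88 and 8.91 in HdhQ150 mice 383, 412, 415 and 426, and 9.11, 9.20, 9.17 and 9.17 in wild-type mice WT-400, WT-401, WT-414 and WT-431. The genotypes did not overlap, and mouse 383 was the lowest. The difference was -0.32 (SE 0.0684), just outside the threshold over all genes (limma adjusted p = 0.0523). An exact two-sided permutation test over the 8 arrays gave p = 0.0286, the smallest value that 70 groupings allow. The call turned on single mice: Htt passed without HdhQ150 mouse 412 (-0.36, limma adjusted p = 0.0278), without WT-454 at 12 months (adjusted p = 0.0246), and without HdhQ150 mice 462 at 12 months (0.0492) or 1023 at 6 months (0.0481). Without mouse 383 alone the difference was -0.24 (limma adjusted p = 0.297), and without 383 and WT-431 together -0.24 (0.385). Without any 1 of the 18-month wild-type mice it was -0.33 to -0.30 (adjusted p = 0.113 to 0.149). Htt passed in the mice of the other ages, at -0.42 at 12 months (limma adjusted p = 0.000122) and -0.39 at 6 months (0.00457). The change of the difference from 12 to 18 months was 0.10 (limma unadjusted p = 0.279). The 40 measured genes that lie nearest to Htt on its chromosome, 20 on each side, had a median of 0.02 and no member past the threshold in limma. By unadjusted p under 0.05, 1 of the 40 was higher (Acox3, 0.15) and 2 were lower (Zfyve28, -0.20, and Sorcs2, -0.19). Over all genes 5.81% reached that p in limma and 0.135% passed the threshold.

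At 18 months, 27 genes differed between the genotypes, 0.135% of those tested (limma, adjusted p under 0.05). HdhQ150 mice had higher levels of 11 (0.0552%) and lower levels of 16 (0.0802%). All 27 differed by at least 1.2-fold and 10 by at least 1.5-fold, and the arrays of the genotypes did not overlap for 26 of them. The exception was Car12. Over all genes, 439 had every HdhQ150 array above every wild-type array (2.2%) and 299 had every one below (1.5%). An unadjusted p under 0.05 was reached by 1159 genes (5.81%), 664 higher and 495 lower, and the median difference of all genes was -0.0037. The model shared its estimate of the spread over all 29 arrays. When the 8 arrays were fitted alone, Gpx6 was the 1 gene past the threshold (limma adjusted p = 0.0058). Each 18-month group has its own mean in both fits, so the differences themselves, signs included, could not change. The 27 genes, chosen with these same arrays, had unadjusted p up to 0.00116 and adjusted p up to 0.334 in this limma fit.

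**Figure D1:**
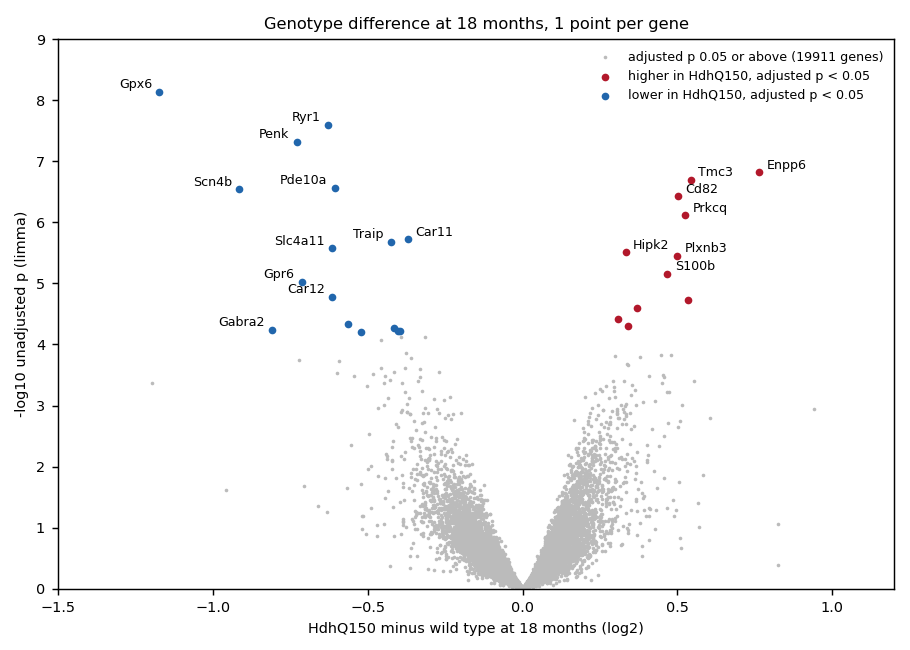
Each point is 1 of 19938 genes, with the difference between HdhQ150 and wild type at 18 months on the x axis (log2) and -log10 of the unadjusted limma p on the y axis. The 16 lower (blue) and 11 higher (red) genes past the threshold are coloured, and Gpx6 lies farthest to the left of them at -1.17.

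Genes of the striatal projection neurons formed the best known group among those that fell. Penk, which encodes the precursor of the enkephalins and marks the indirect pathway, fell by 0.73 (SE 0.0998, limma adjusted p = 0.00032), a 1.66-fold difference. Its levels were 11.34, 11.33, 11.87 and 11.55 in HdhQ150 mice 383, 412, 415 and 426, and 12.16, 12.11, 12.41 and 12.33 in wild-type mice WT-400, WT-401, WT-414 and WT-431. The highest HdhQ150 mouse, 415, still lay below the lowest wild-type mouse. Gpr6, an orphan receptor of indirect pathway neurons, fell by 0.71 (SE 0.133, limma adjusted p = 0.0118), with means of 9.27 ± 0.30 in HdhQ150 and 9.98 ± 0.15 in wild type (SD, n = 4 each). Mouse 415 was again the highest HdhQ150 mouse, at 9.70 against 9.04 to 9.24 in the other 3. Gpr6 missed the threshold without HdhQ150 mouse 412 (adjusted p = 0.0772) or 426 (0.0934) or WT-400 (0.105). In bulk tissue, fewer cells of a type and less RNA in each cell cannot be told apart, here and in all that follows.

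Scn4b, the auxiliary β4 subunit of voltage-gated sodium channels, showed the largest difference of the projection neuron genes. It stood at 8.66, 8.87, 9.16 and 8.91 in HdhQ150 mice 383, 412, 415 and 426 and at 10.15, 9.86, 9.78 and 9.48 in wild-type mice WT-400, WT-401, WT-414 and WT-431. The groups did not overlap, and the gene fell by 0.91 (SE 0.138, limma adjusted p = 0.000814), 1.88-fold. Pde10a, the phosphodiesterase that degrades cyclic nucleotides in these neurons, fell by 0.61 (SE 0.0911, limma adjusted p = 0.000814), from 11.45 ± 0.07 (SD, n = 4) to 10.85 ± 0.17 (n = 4). Rasgrp2, an exchange factor that activates the small GTPase Rap1, fell by 0.52 (SE 0.111, limma adjusted p = 0.0466). Its levels were 8.39 to 8.63 in HdhQ150 mice and 8.77 to 9.31 in wild type. Rasgrp2 kept its call without 7 of the 29 mice in turn. Among the 18-month mice these were 415 and WT-431, and without the other 6 its adjusted p was 0.0679 to 0.385.

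**Figure D2:**
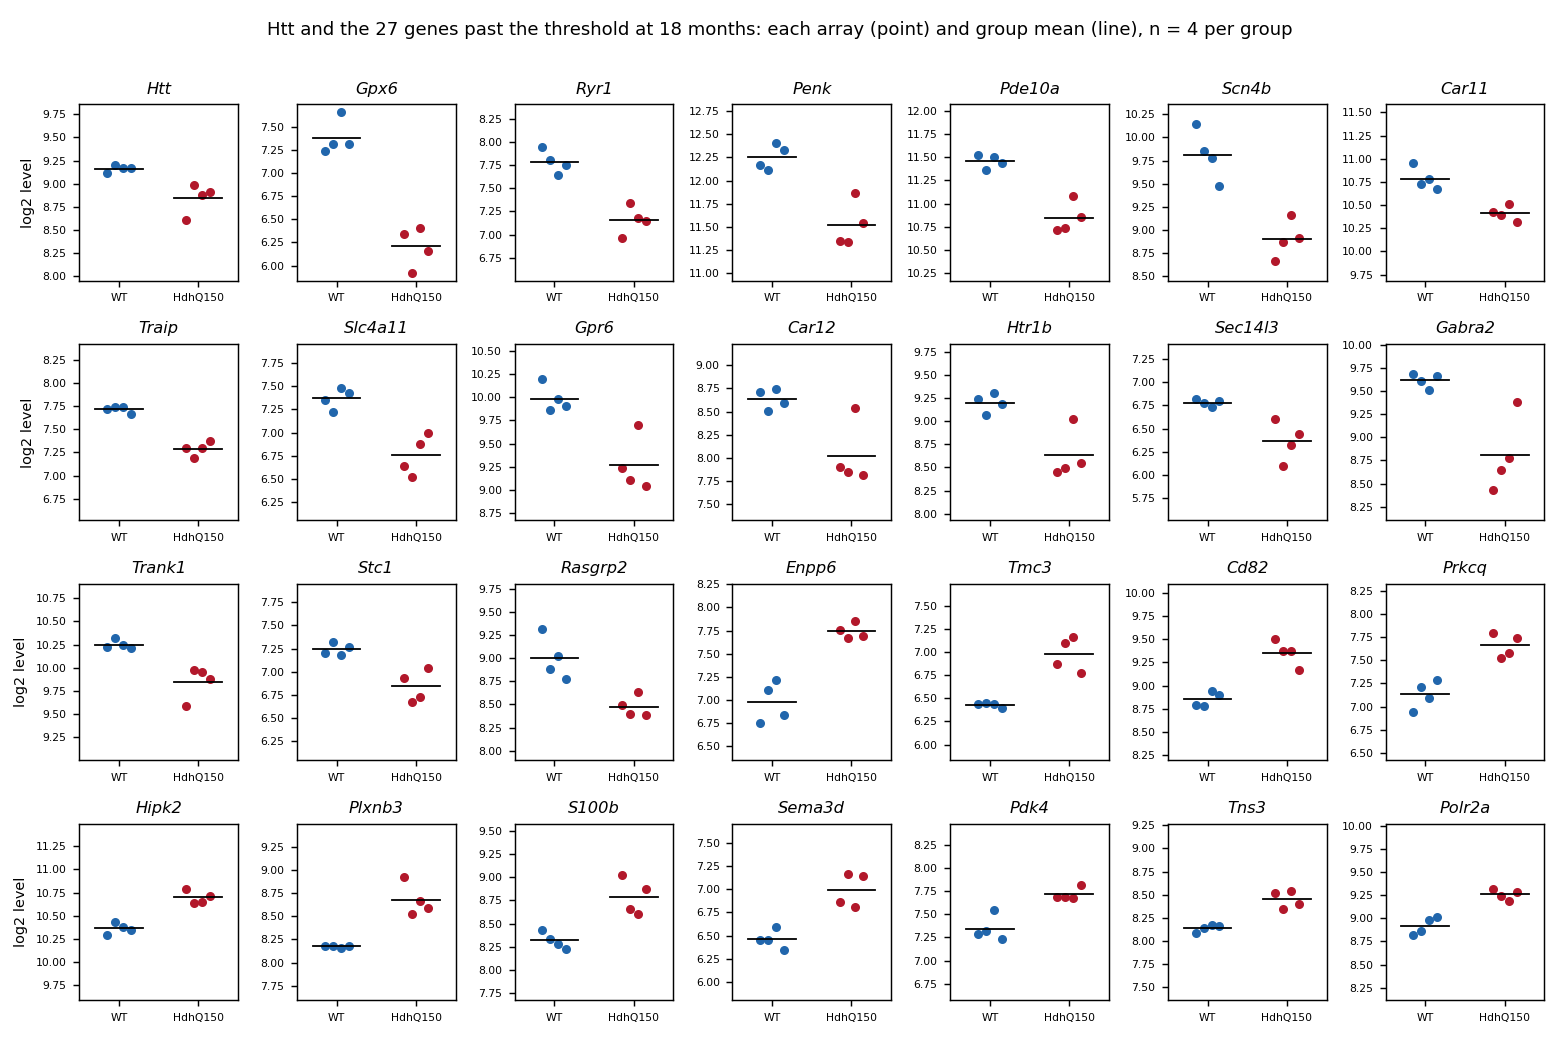
Log2 level on each 18-month array (points; blue wild type, red HdhQ150, n = 4 each) and group mean (line) for Htt and the 27 genes past the threshold, lower genes first; every panel spans the same log2 range. Points of the genotypes are separated in height in every panel other than that of Car12, where HdhQ150 mouse 415 at 8.54 lies among the wild-type mice.

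The whole list of projection neuron markers lay lower. Of its 30 measured members, 3 passed (Scn4b, Pde10a and Rasgrp2, all lower), 28 had a negative difference, and the median was -0.28, against -0.0037 over all genes. Arrays did not overlap for 10 members, all lower in HdhQ150 (33.3%, against 1.5% of all genes). By unadjusted p under 0.05 in limma, 20 members were lower and 0 higher, and only the 3 named passed the threshold. Over all 19938 genes, 495 were lower and 664 higher by unadjusted p (5.81% together), and 0.135% passed. Members that missed the threshold included Adcy5, the main striatal adenylyl cyclase (-0.46, limma adjusted p = 0.0559), Rgs14 (-0.42, 0.125) and Ppp1r1b, which encodes the dopamine-regulated phosphatase inhibitor DARPP-32 (-0.30, 0.499). The cannabinoid receptor gene Cnr1 stood at -0.30 (limma adjusted p = 0.564). The members with a positive difference were Foxp2 (0.07) and Tmem158 (0.03). Each member's level was taken relative to its wild-type mean at 18 months, and the median over the list's members on each array was -0.38 to -0.11 in HdhQ150 mice and -0.11 to 0.16 in wild type. HdhQ150 mouse 415, the highest of its group, reached the level of WT-431, the lowest of its group.

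Markers of the direct and the indirect pathway were set beside each other. Over all genes 0.135% passed and 5.81% had an unadjusted p under 0.05 (limma). Of 9 measured indirect pathway genes, 2 passed, Penk and Gpr6, both lower, and 8 had a negative difference with a median of -0.08. The receptor gene Gpr52 (-0.72, limma adjusted p = 0.0954) and the D2 receptor gene Drd2 (-0.44, 0.130) missed the threshold with arrays that did not overlap, and the other 5 members lay between -0.08 and 0.02. Drd2 was 10.30, 10.02, 10.52 and 10.17 in HdhQ150 mice 383, 412, 415 and 426 and 10.60 to 10.86 in wild type. The adenosine receptor gene Adora2a had no tested probe set. Of 8 direct pathway genes, 0 passed (limma; 2 lower by unadjusted p under 0.05), 6 had a negative difference, and the median was -0.07. The D1 receptor gene Drd1 stood at -0.46 (limma adjusted p = 0.115) and overlapped between genotypes, at 8.95 to 9.53 in HdhQ150 and 9.43 to 9.78 in wild type. The muscarinic receptor gene Chrm4 stood at -0.34 (limma adjusted p = 0.137), the dynorphin precursor gene Pdyn at -0.18 and the substance P precursor gene Tac1 at -0.01. The difference between the pathways was not tested.

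The smallest p of all genes belonged to Gpx6, which encodes a glutathione peroxidase, an enzyme family that removes peroxides. Its levels (probe set 10403911) were 6.34, 5.92, 6.41 and 6.16 in HdhQ150 mice 383, 412, 415 and 426, and 7.23, 7.32, 7.66 and 7.31 in wild-type mice WT-400, WT-401, WT-414 and WT-431. The groups lay clearly apart, and Gpx6 fell by 1.17 (SE 0.146, limma adjusted p = 0.000144), 2.25-fold. Leaving out any 1 of the 29 mice gave -1.24 to -1.08 with the call kept. Ryr1, a calcium release channel of the endoplasmic reticulum, stood at 6.96, 7.34, 7.18 and 7.15 in HdhQ150 and at 7.95, 7.80, 7.64 and 7.75 in wild type, in the same order of mice. It fell by 0.63 (SE 0.0831, limma adjusted p = 0.00025) with no overlap. It was the 1 member of 27 calcium signalling genes that passed, where 0.135% of all genes did. The median of these genes was -0.08 with 20 negative, and 4 had arrays lower without overlap (14.8%, against 1.5% of all genes). The voltage-gated calcium channel gene Cacna1e (-0.27, limma adjusted p = 0.125), the kinase genes Camk4 (-0.26, 0.618) and Camk2b (-0.18, 0.529), and the other ryanodine receptor genes Ryr2 (-0.04) and Ryr3 (-0.17) missed the threshold.

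Receptor, channel and transporter genes made up several of the other decreases. Gabra2, the α2 subunit of the GABA-A receptor, stood at 8.43, 8.64, 8.77 and 9.38 in HdhQ150 mice 383, 412, 415 and 426 and at 9.68, 9.61, 9.52 and 9.66 in wild-type mice WT-400, WT-401, WT-414 and WT-431. Mouse 426 came close to the lowest wild-type mouse, WT-414, and the other 3 lay well below. The gene fell by 0.81 (SE 0.172, limma adjusted p = 0.0466). It kept the call without mouse 426 and lost it without each of the other 7 mice of this age (adjusted p = 0.091 to 0.266). Among the 12 GABA receptor genes it was the 1 that passed (0.135% of all genes did), with a list median of -0.09. Gabrd, the δ subunit, stood at -0.35 (limma adjusted p = 0.261) and passed without WT-431 (-0.47, adjusted p = 0.0374). Htr1b, the serotonin 1B receptor, fell by 0.56 (SE 0.118, limma adjusted p = 0.0433), at 8.46 to 9.02 in HdhQ150 against 9.06 to 9.30 in wild type. It kept the call without 415 and lost it without each of the other 7 mice (adjusted p = 0.0507 to 0.192).

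Slc4a11, a membrane transporter of the bicarbonate transporter family, fell by 0.61 (SE 0.106, limma adjusted p = 0.0044), from 7.37 ± 0.11 (SD, n = 4) to 6.76 ± 0.22 (n = 4). Without 383 and WT-431 together it stood at -0.56 and missed the threshold (limma adjusted p = 0.102). Both carbonic anhydrase genes past the threshold were lower. Car11, a relative without enzyme activity, fell by 0.37 (SE 0.0624, limma adjusted p = 0.00372), with 10.32 to 10.51 in HdhQ150 and 10.68 to 10.95 in wild type. Car12, a membrane enzyme, fell by 0.62 (SE 0.119, limma adjusted p = 0.0196). Its levels in HdhQ150 mice 383, 412, 415 and 426 were 7.90, 7.84, 8.54 and 7.81, and in wild-type mice WT-400, WT-401, WT-414 and WT-431 they were 8.72, 8.51, 8.74 and 8.59. Mouse 415 lay inside the wild-type range, above WT-401. Car12 missed the threshold without 383 (adjusted p = 0.105), 412 (0.12), 426 (0.142), WT-400 (0.105) or WT-414 (0.0945).

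The last 4 genes that fell have roles outside neurotransmission or less well known ones. Traip, a ubiquitin ligase of DNA replication and repair, fell by 0.42 (SE 0.0717, limma adjusted p = 0.00372), from 7.72 ± 0.04 (SD, n = 4) to 7.29 ± 0.08 (n = 4). Sec14l3, a lipid-binding protein gene, fell by 0.41 (limma adjusted p = 0.046), at 6.10 to 6.60 in HdhQ150 and 6.74 to 6.82 in wild type. Trank1 fell by 0.40 (limma adjusted p = 0.0466), and its other probe set gave -0.41 without passing. Stc1, the secreted hormone stanniocalcin, fell by 0.40 (limma adjusted p = 0.0466), at 6.68 to 7.04 against 7.18 to 7.32. The wild-type mice lay close together for Sec14l3 and Trank1, with SDs of 0.03 and 0.05 against 0.21 and 0.18 in HdhQ150. Traip kept its call without each mouse. Sec14l3 kept it without 383 of the 18-month mice and lost it without each of the other 7 (adjusted p = 0.0872 to 0.256). Stc1 kept it without 426 and lost it without the other 7 (0.0689 to 0.253). Trank1 kept it without 412 and 415 and lost it without the other 6 (0.0796 to 0.284).

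Among the genes that rose, Enpp6 had the smallest p. It encodes a choline phosphodiesterase that is a marker of oligodendrocytes as they begin to make myelin. Its levels were 7.75, 7.67, 7.85 and 7.69 in HdhQ150 mice 383, 412, 415 and 426, and 6.75, 7.10, 7.22 and 6.84 in wild-type mice WT-400, WT-401, WT-414 and WT-431. The 4 HdhQ150 mice lay closer together than the wild-type mice and above all of them, and the gene rose by 0.76 (SE 0.111, limma adjusted p = 0.000751), 1.70-fold. Plxnb3, a semaphorin receptor found in oligodendrocytes, was 8.93, 8.53, 8.66 and 8.59 in HdhQ150 and 8.16 to 8.18 in wild type. It rose by 0.50 (SE 0.0873, limma adjusted p = 0.00497), and mouse 383 was the highest. S100b, a calcium-binding protein of astrocytes and of some oligodendrocytes, rose by 0.47 (SE 0.0854, limma adjusted p = 0.00916), with 8.60 to 9.03 against 8.23 to 8.44. S100b missed the threshold without 383 (adjusted p = 0.0801) or 426 (0.0687). Without 383 and WT-431 together, Plxnb3 (0.42, limma adjusted p = 0.102) and S100b (0.36, 0.197) missed the threshold, while Enpp6 passed.

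Of 11 genes of newly formed oligodendrocytes, Enpp6 passed as higher, 0 passed as lower, and the median was 0.05. Over all genes, 0.135% passed and 5.81% had an unadjusted p under 0.05 in limma (664 higher and 495 lower). Bcas1, another marker of this stage, stood at 0.45 (limma adjusted p = 0.130) with 8.72 to 9.03 in HdhQ150 and 8.31 to 8.54 in wild type, and Gpr17 stood at -0.03. Of 14 genes of mature oligodendrocytes 0 passed (limma; 5 higher and 0 lower by unadjusted p under 0.05), with a median of 0.11. Mog (0.33, limma adjusted p = 0.220), Cnp (0.33, 0.228) and Mbp (0.12, 0.884), all myelin components, had arrays higher without overlap, 3 of 14 (21.4%, against 2.2% of all genes). Of the mature genes 9 had positive and 5 negative differences, the latter being Cldn11 (-0.08), Ugt8a (-0.19), Aspa (-0.10), Mobp (-0.08) and Mal (-0.06). Relative to the wild-type mean, the median of the mature genes on each array was -0.11 to 0.23 in HdhQ150 and -0.13 to 0.09 in wild type, with overlap. Of 10 precursor genes 0 passed (limma; 3 higher by unadjusted p under 0.05), 9 were positive, and the median was 0.12. The lineage factors Olig1 (0.33, limma adjusted p = 0.248), Olig2 (0.23, 0.434) and Sox10 (0.28, 0.511) had arrays higher without overlap (30.0%), whereas the precursor receptor gene Pdgfra stood at 0.09.

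**Figure D3:**
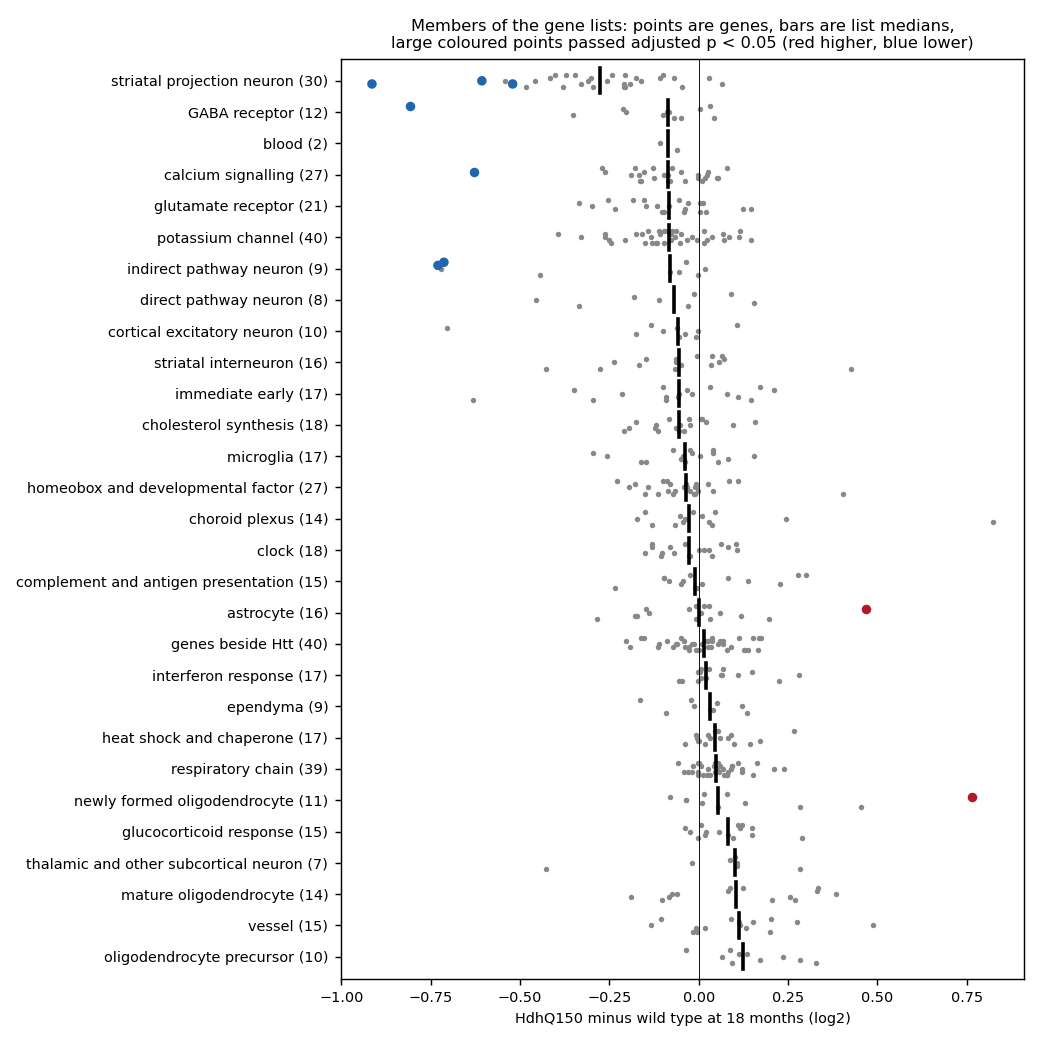
Each point is a measured member of a gene list, placed by its difference between HdhQ150 and wild type at 18 months (x axis, log2), with lists on the y axis ordered by their median (black bar) and the number of measured members in parentheses. Projection neuron markers have the lowest median, -0.28, and the large coloured points mark members past the threshold.

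The other genes that rose belong to signalling, adhesion and metabolism. Cd82, a tetraspanin of the cell surface, was 9.50, 9.37, 9.37 and 9.17 in HdhQ150 mice 383, 412, 415 and 426, and 8.79, 8.78, 8.94 and 8.90 in wild-type mice WT-400, WT-401, WT-414 and WT-431. It rose by 0.50 (SE 0.077, limma adjusted p = 0.000933) with no overlap. Prkcq, the theta isoform of protein kinase C, rose by 0.52 (SE 0.0836, limma adjusted p = 0.0017), from 7.14 ± 0.15 (SD, n = 4) to 7.66 ± 0.13 (n = 4). Tmc3, a transmembrane channel-like gene, rose by 0.54 (SE 0.0803, limma adjusted p = 0.000804), from 6.43 ± 0.02 to 6.97 ± 0.18. Hipk2, a nuclear protein kinase, rose by 0.33 (SE 0.0578, limma adjusted p = 0.00476). Sema3d, a secreted guidance factor, rose by 0.54 (SE 0.105, limma adjusted p = 0.0209), at 6.81 to 7.16 against 6.35 to 6.59. Cd82, Prkcq, Tmc3 and Hipk2 kept their calls without each mouse, though Hipk2 missed the threshold without 383 and WT-431 together (0.30, limma adjusted p = 0.102). Sema3d lost its call without HdhQ150 mice 412 (adjusted p = 0.131) or 426 (0.142) or wild-type mice WT-400 (0.0888), WT-401 (0.0679) or WT-431 (0.0835).

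Pdk4, the kinase that switches off pyruvate dehydrogenase and is raised in fasting, was 7.69, 7.68, 7.67 and 7.82 in HdhQ150 mice 383, 412, 415 and 426. In wild-type mice WT-400, WT-401, WT-414 and WT-431 it was 7.29, 7.31, 7.54 and 7.23. The groups did not overlap, with WT-414 the nearest, and Pdk4 rose by 0.37 (SE 0.0741, limma adjusted p = 0.0265). It kept its call without 415 and WT-414 and lost it without each of the other 6 mice of this age (adjusted p = 0.0621 to 0.161). Tns3, a focal adhesion protein, rose by 0.31 (limma adjusted p = 0.0378), and Polr2a, the largest subunit of RNA polymerase II, by 0.34 (limma adjusted p = 0.0447). Tns3 kept its call without 412 and lost it without the other 7 mice of this age (0.0591 to 0.175). Polr2a kept its call without 415 and WT-431 and lost it without the other 6 (0.0736 to 0.246). Mice of other ages also mattered through the shared spread: Tns3, Htr1b, Polr2a, Sec14l3, Gabra2, Trank1, Stc1 and Rasgrp2 lost their calls without 3 to 17 of them (adjusted p = 0.0506 to 0.0647), WT-508 at 12 months and HdhQ150 1016 at 6 months among them for each gene.

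Marker lists of other cell types are given beside the shares over all genes, 0.135% past the threshold and 5.81% by unadjusted p under 0.05 (limma). At such a share, 0 past the threshold is the usual count for lists of this size. Astrocyte markers had a median of -0.00002, with S100b the 1 of 16 past the threshold and Gfap, the classical marker of reactive astrocytes, at 0.03 (8.48 to 9.21 in HdhQ150 and 8.28 to 9.19 in wild type). Of 17 microglia markers 0 passed (limma; 1 higher and 1 lower by unadjusted p under 0.05), with a median of -0.04, Csf1r at 0.15 and Itgax at -0.26. Of 15 vessel markers 0 passed (limma; 3 higher by unadjusted p under 0.05), with a median of 0.11 and Acta2 at 0.49, or 0.20 without mouse 383. Markers of striatal interneurons (16 genes, median -0.06), cortical excitatory neurons (10, -0.06), thalamic and other subcortical neurons (7, 0.10), choroid plexus (14, -0.03), ependyma (9, 0.03) and blood (2, -0.08) had 0 members past the threshold in limma. By unadjusted p under 0.05 the 6 lists together had 1 member, Neurod1 (-0.70), which stood at -0.32 without WT-431. Relative to the wild-type mean, the median over the thalamic and other subcortical markers on each array ran from -0.24 to 0.46 in HdhQ150 and from -0.29 to 0.62 in wild type, and cortical markers from -0.48 to 0.30 and from -0.38 to 0.33. The part of these tissue differences between mice in the gene results was not tested.

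Lists of neuronal activity and signalling gave 0 members past the threshold apart from those named. With 0.135% of all genes past it, 0 is the usual count for lists of this size. An unadjusted p under 0.05 in limma was reached by 5.81% of all genes. Of 17 immediate early genes 0 passed (limma; 1 lower by unadjusted p under 0.05), and their median was -0.06 at 18 months and -0.27 at 12 months. Egr2, an activity-induced transcription factor, stood at -0.35 (limma adjusted p = 0.901) and the synaptic scaffold gene Homer1 at -0.30 (0.709). Of 40 potassium channel genes 0 passed (limma; 6 lower by unadjusted p under 0.05), 30 were negative, and the median was -0.08. Kcnip2, a subunit of fast inactivating potassium channels, came nearest at -0.39 (limma adjusted p = 0.0523), with 9.16 to 9.62 in HdhQ150 and 9.68 to 9.99 in wild type, followed by Kcnh4 (-0.33, 0.130). Of 21 glutamate receptor genes 0 passed (limma; 5 lower by unadjusted p under 0.05), with a median of -0.08 and the metabotropic receptor genes Grm7 at -0.33 and Grm4 at -0.26. Clock genes (18, median -0.03) and homeobox and developmental factors (27, -0.04) had 0 past the threshold in limma, and 0 and 1 by unadjusted p under 0.05, the 1 being Onecut1 (0.40).

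Metabolic, stress and immune lists had medians from -0.05 to 0.08, against -0.0037 over all genes. The shares of all genes were 0.135% past the threshold and 5.81% by unadjusted p under 0.05 (limma). Of 39 respiratory chain genes 0 passed (limma; 3 higher by unadjusted p under 0.05), yet 31 were positive with a median of 0.05. Relative to the wild-type mean, their median on each array was 0.04 to 0.06 in HdhQ150 mice and -0.04 to 0.03 in wild type, without overlap, and Sdha, a succinate dehydrogenase subunit, stood at 0.21 and Cox5b at 0.24. Cholesterol synthesis genes (18, median -0.05, 13 negative), heat shock and chaperone genes (17, 0.05, 13 positive) and glucocorticoid response genes (15, 0.08, 12 positive) had 0 past the threshold in limma. So did interferon response genes (17, 0.02, 13 positive) and complement and antigen presentation genes (15, -0.01, 9 negative). By unadjusted p under 0.05 these lists held 1, 1, 1, 2 and 2 members. The complement list counts the olfactory receptor gene Olfr48, matched to the entry C3 through a shared gene name, and C3 itself was not measured. Cryab, a small heat shock protein of glia, stood at 0.27 (limma adjusted p = 0.483), and the interferon-induced gene Xaf1 at 0.28 (0.272). Pdk4 was on none of these lists.

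Some genes without overlap between genotypes came close to the threshold and are given as values. On the higher side these were Pcdhb21 (0.48, limma adjusted p = 0.0896), Sfmbt2 (0.30, 0.0896), Usp54 (0.38, 0.0896), Apod (0.34, 0.107), a lipid carrier, Rhoj (0.34, 0.110), Id3 (0.41, 0.130), Prox1 (0.46, 0.130) and Ppp2r3a (0.33, 0.137), with Smoc1 (0.45, 0.0896) and Bcas1. On the lower side, beside Htt, Kcnip2, Adcy5, Gpr52, Rgs14 and Cacna1e, they were Dusp18 (-0.38, limma adjusted p = 0.0891), Tbc1d8 (-0.36, 0.0907), the histamine receptor gene Hrh3 (-0.38, 0.115) and Ptpn7 (-0.33, 0.117). Phex, an endopeptidase, stood at -0.50 (limma adjusted p = 0.148), with 5.68 to 5.95 in HdhQ150 and 6.26 to 6.45 in wild type.

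The other ages held different animals, so their arrays are a separate sample of the same genotypes. All ages were fitted together with a shared estimate of each gene's spread, so a gene's p-values at different ages are not independent. In all, 187 genes passed at 12 months (0.938%) and 5 at 6 months (0.0251%). By unadjusted p under 0.05 in limma there were 1790 at 12 months (8.98%) and 2738 at 6 months (13.7%). Of the 27 genes of 18 months, 26 had the same sign at 12 months, where 23 of them passed. At 6 months 26 had the same sign and 1 passed, Gpx6. With the same sign and an unadjusted p under 0.05 in limma there were 26 at 12 months and 19 at 6 months. The 23 genes are 85.2% of the 18-month list and 12.3% of the 12-month list. The 11 higher genes had a median of 0.50 at 18 months, 0.31 at 12 and 0.15 at 6, and the 16 lower genes -0.61, -0.52 and -0.27. These medians come from genes chosen by their 18-month values, which favours that age. The exception in sign was Pdk4 at both other ages (-0.03 at 12 months and -0.04 at 6).

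**Figure D4:**
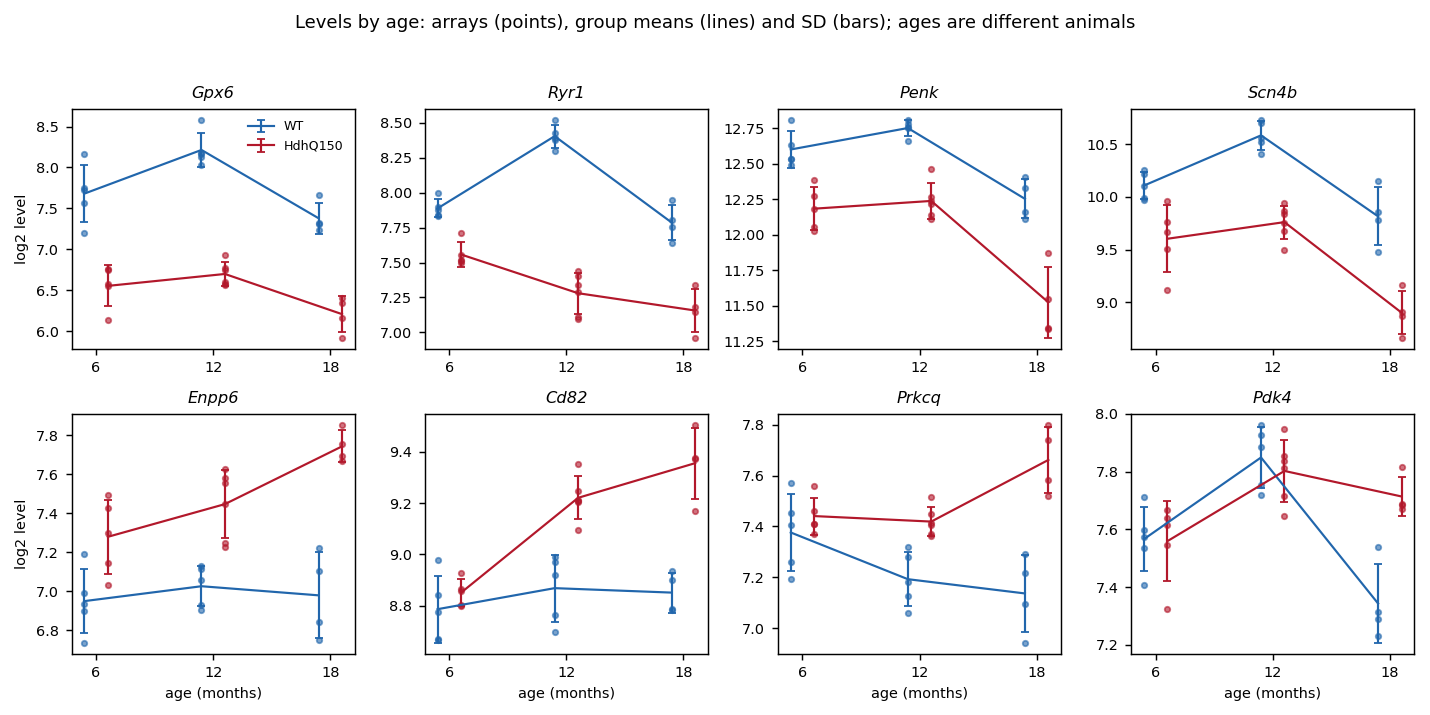
Log2 level on the y axis by age on the x axis (6, 12 and 18 months) for 8 genes past the threshold at 18 months; points are mice, lines join group means, and bars are 1 SD (blue wild type, red HdhQ150; 4 to 6 mice a group, different animals at each age). Gpx6, Ryr1, Penk and Scn4b lie lower in HdhQ150 at each age, and for Pdk4 the genotypes separate at 18 months, where the wild-type mean is 7.34.

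The genes past the threshold at 18 months and at neither other age were Pdk4, Prkcq, Sema3d and Stc1. Cd82, which passed at 12 months too, stood at 0.06 at 6 months, 0.35 at 12 and 0.50 at 18. Prkcq stood at 0.06, 0.23 and 0.52 and Sema3d at 0.05, 0.21 and 0.54 in the same order. Pdk4 in wild type was 7.57 ± 0.11 at 6 months (SD, n = 5), 7.85 ± 0.11 at 12 (n = 5) and 7.34 ± 0.14 at 18 (n = 4). In HdhQ150 mice it was 7.56 ± 0.14 (n = 5), 7.80 ± 0.11 (n = 6) and 7.71 ± 0.07 (n = 4). A change of the difference between ages was tested directly. From 12 to 18 months 0 genes passed (0.0%; limma, 412 genes or 2.07% with an unadjusted p under 0.05), and from 6 to 18 months 0 passed (0.0%; 1629 or 8.17%). For Pdk4 the change from 12 to 18 months was 0.40, for Prkcq 0.29, for Sema3d 0.32 and for Stc1 -0.14. The limma p-values of these changes before adjustment were 0.00033, 0.0125, 0.026 and 0.234, and after adjustment over all genes none was under 0.05. Passing at 18 months alone is therefore not shown to be a difference between ages.

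The 187 genes of 12 months were followed into the 18-month mice. Of these, 181 had the same sign at 18 months (96.8%, against 59.7% of all genes), and 80 had arrays that did not overlap in that direction (42.8%, against 3.07%). With the same sign and an unadjusted p under 0.05 there were 112 (59.9%, against 4.92%), and 23 passed over all genes. The p-values of both ages share each gene's estimate of the spread, so these counts are not independent of the choice at 12 months. The 67 higher genes had a median of 0.31 at 12 months and 0.18 at 18, and the 120 lower genes -0.38 and -0.22. Of the 181, 156 were smaller in size at 18 months. The genes were chosen by their 12-month values, which favours larger sizes there. The number of 12-month genes varied with single mice of that age, from 115 without 462 to 440 without WT-454, and 99.1% and 82% of these had the same sign at 18 months. It was 117 without 464, 124 without WT-461, and 122 without WT-508 or WT-527. The change between ages had an unadjusted p under 0.05 for 47 of them (25.1%, against 2.07%), and 0 passed. Ryr1 went from -1.12 at 12 months to -0.63 at 18 (unadjusted p = 0.000116), Gpx6 from -1.49 to -1.17 (0.111) and Egr2 from -1.04 to -0.35. Kcng1, a modifying subunit of potassium channels, stood at 0.53 at 6 and 12 months and at 0.02 at 18 months (a change from 12 to 18 months of -0.51, which missed the threshold over all genes). In the 18-month mice Kcng1 was 8.93, 8.67, 8.85 and 8.81 in HdhQ150 mice 383, 412, 415 and 426, and 9.05, 8.88, 8.70 and 8.57 in wild-type mice WT-400, WT-401, WT-414 and WT-431, with full overlap. The sign of its small 18-month difference flipped under further quantile normalization.

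**Figure D5:**
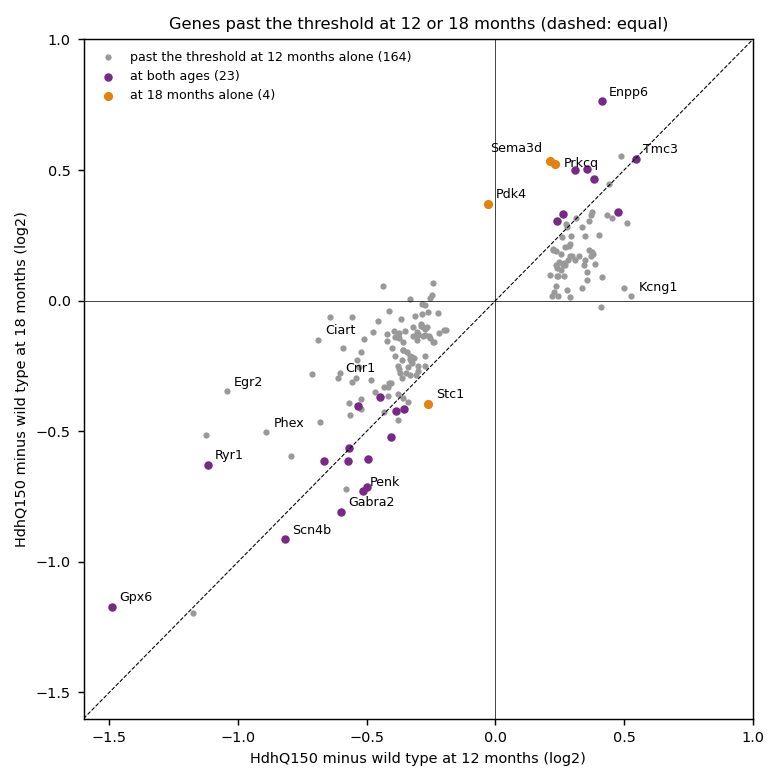
Each point is a gene past the threshold at 12 or 18 months, with its difference between HdhQ150 and wild type at 12 months on the x axis and at 18 months on the y axis (both log2); the dashed line marks equal values. The 23 genes of both ages have the same sign at each, with Ryr1 at -1.12 on the x axis and -0.63 on the y axis, those of 12 months alone lie mostly nearer 0 at 18 months, and the 4 of 18 months alone include Pdk4, at -0.03 on the x axis.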

How the data were processed

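The series holds 29 arrays, 1 per mouse, of caudate nucleus RNA (TRIzol and chloroform extraction, biotin label), per the labels' protocols. Groups, ages, sexes and mouse numbers were taken from the labels. The deposited values are log2 expression levels that, per the submitters' processing notes, the authors made with RMA in Affymetrix Expression Console. The notes name no version, options or build. The values ran from 1.08 to 14.11, no pair of arrays was identical, and every column was used. Of 35556 probe sets, 21789 had 1 gene symbol in the platform annotation, 1621 had several and 12146 are unnamed here. Names were updated by Entrez ID through RefSeq gene names of GRCm38.p6 (21698 probe sets matched, 91 kept the old name). For the 999 genes with several probe sets the one with the highest mean was kept, which left 19938 genes.

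The linear model was fitted to all 29 arrays in limma 3.58.1 (R 4.3.3; lmFit, then eBayes with an intensity trend). It held the 6 group means and labelled sex. This gives 22 residual degrees of freedom. Every 18-month mouse is labelled female, so sex enters through the other ages. Two-sided p-values were adjusted over all 19938 genes (Benjamini-Hochberg), with a threshold of 0.05 and no fold threshold. A fold in the text is 2 to the power of the difference. The limma fit was checked on simulated arrays. At 18 months, 29.9%, 73.1% and 98.5% of genes changed by 0.3, 0.5 and 1 were recovered among 19938 genes, with 11 false calls. For each of the changes from 12 or 6 to 18 months, 46.3% were recovered at 0.5. At 0.3 the shares were 13.4% from 12 months and 2.99% from 6 months. The simulated arrays held no outlying library.

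The text names all genes past the threshold, the 10 nearest to it in each direction without overlap between arrays, a fixed set (Htt, Penk, Drd1, Tac1, Drd2, Pdyn, Adora2a, Ppp1r1b, Pde10a, Cnr1, Gfap, Ryr1, Gpx6, Phex, Egr2, Scn4b and Kcng1) and up to 4 members of each list, with other list members given as values. The 28 gene lists (516 entries, 471 measured) and the 40 genes beside Htt are described by counts and medians. The 471 include Olfr48, which was matched to the entry C3 by name and is counted in the complement list throughout. The comparison, its lists and its named genes were chosen with earlier results of these data known. Alternatives covered the sex term, females alone, the 8 arrays alone, the brighter 50% of genes, all probe sets, the mean over a gene's probe sets, array weights, robust and untrended eBayes, median centring, a further quantile normalization, mice WT-454 and 1023 left out or mouse 1023 entered as male, and each mouse left out in turn. Leaving out mice 383 and WT-431 was added after seeing the data. No batch or scan date was used, since the labels name none.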

Additional observations from a re-analysis of the deposited data

Results flagged for a closer look

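The 28 genes plotted by array (56 groups of 4 mice) were searched for 1 mouse far from the other 3. There were 2 such groups, no more than the 1 group in 20 or so that chance gives. For Car12, HdhQ150 mouse 415 stood at 8.54, and the other HdhQ150 mice of 18 months lay between 7.81 and 7.90. For Pdk4, HdhQ150 mouse 426 stood at 7.82, and the other 3 lay between 7.67 and 7.69 (wild-type mice 7.23 to 7.54).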

How the results depend on the processing

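The 27 genes became 20 with no sex term, 30 in females alone, 25 among the brighter 50% of genes, 36 with array weights, 20 with median centring and 33 after a further quantile normalization. The count left this range with the 8 arrays fitted alone (1), without WT-454 and HdhQ150 mouse 1023 (43, including all 27) and without 383 and WT-431 (13, of which 12 were among the 27, a setting added after seeing the data). Leaving out 1 mouse gave 15 to 41: 15 without WT-400, 16 without 426, 41 without 415 (23 shared with the 27) and 41 without WT-454 (all 27 shared). Of the 27 genes, 14 kept the call without each of the 29 mice. Over all 35556 probe sets 18 passed, 16 with 1 symbol and 2 unnamed here, both higher. The change from 12 to 18 months had 0 genes under each mouse left out. The change from 6 to 18 months also had 0 to 0 so, and 6 with array weights (Ajap1, Dcaf10, Ipp, Kcng1, Mbip and Tipin). Htt passed with the brighter genes (-0.32), array weights (-0.28), further quantile normalization (-0.34) and without mice WT-454 and 1023 (-0.32), and ran from -0.36 to -0.24 with 1 mouse left out. Genes near 0 changed sign. Tac1 was 0.0095 with array weights and -0.15 to 0.12 with 1 mouse left out. Gfap was -0.13 with array weights, -0.27 without 383 and WT-431, and -0.14 to 0.16 with 1 mouse left out. Kcng1 was -0.0066 after further quantile normalization, -0.10 without 383 and WT-431, and -0.061 to 0.099 with 1 mouse left out. List medians moved for indirect pathway (-0.25, 8 members left), choroid plexus (0.82, which is Ttr alone, the 1 member left of 14) and glucocorticoid genes (0.019, 11 left) among the brighter genes, and for astrocyte (0.089), microglia (-0.18) and complement genes (-0.16) without 383 and WT-431. Of the 29 medians (28 lists and the genes beside Htt), 14 kept their sign under every alternative and 15 changed it under at least 1, among them the direct pathway (0.0022 without 426), glutamate receptor (0.0013 without 383) and subcortical neuron medians (-0.023 without 383). The cause of these shifts was not tested. No paired analysis was made because the labels name no pairing of the mice. Limits: 4 arrays a group, values already normalized by the authors, and no measure of RNA quality used here.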

Other observations

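Some genes had larger differences than most that passed and missed the threshold, with arrays that varied widely. They were picked out after their values were seen. Ogn, a small proteoglycan of connective tissue, had the highest positive difference of all genes, 0.94 (limma adjusted p = 0.226), with HdhQ150 mouse 383 at 8.22 and the other HdhQ150 mice at 6.64 to 6.69, against 5.79 to 6.51 in wild type. The hormone gene Prl stood at 0.83 (limma adjusted p = 0.936) and the choroid plexus gene Ttr at 0.82 (0.993). Ly96, a cofactor of Toll-like receptor signalling, stood at 0.60 (limma adjusted p = 0.248). On the lower side Gm10754, a predicted gene, stood at -1.19 (limma adjusted p = 0.138), with 4.98 to 6.36 in HdhQ150 and 6.70 to 7.10 in wild type. It passed at 12 months (-1.17, limma adjusted p = 0.0173). Ndst4, an enzyme of heparan sulfate synthesis, stood at -0.96 (limma adjusted p = 0.719), with HdhQ150 mouse 412 at 5.82 and the others of its group at 7.20 to 7.81.

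With the 8 arrays fitted alone, Il33, which encodes a cytokine stored in nuclei of oligodendrocytes and astrocytes, ranked among the 10 smallest p-values (-0.45, limma adjusted p = 0.0777) although it is not among the 27 genes. Of the 12146 probe sets unnamed here, 2 passed in the fit of all probe sets, 10393620 (0.44, limma adjusted p = 0.0203) and 10343297 (0.94, 0.0296), both higher in HdhQ150.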
